A study of Mus musculus with 16 samples.

Results

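The unfolded protein response and the degradation of misfolded proteins from the endoplasmic reticulum (ER) were followed through 34 genes in mouse HM1 ovarian tumours and in CD8 T cells sorted from them. The genes were taken by symbol from a named list. All 34 were found among the 52916 gene symbols shared by the 16 expression tables, and they comprise 15 chaperones and folding enzymes, 6 stress sensors and transcription factors, 3 targets of ATF4 and CHOP, and 10 ER degradation genes. HM1 is a mouse ovarian cancer line. Whole tumour tissue gave 5 control and 5 mannose-supplemented libraries, and cells labelled as CD8 tumour-infiltrating lymphocytes gave 3 control and 3 mannose-supplemented libraries. The study's title names anti-PD-1 therapy, but the sample labels do not state whether any group received it, nor the strain, age, sort gate, or route and dose of mannose. Nor do the labels tie a library to an animal, and the p-values therefore describe no more than the spread between these libraries, which may be technical. Values are TPM, transcript abundance per length scaled to a common total per library.

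When unfolded proteins build up in the ER, the sensors ATF6, IRE1 (encoded by Ern1) and PERK (encoded by Eif2ak3) start separate signalling branches. ATF6 and the spliced form of XBP1 drive chaperone and degradation genes, while PERK slows translation and favours synthesis of ATF4, which acts on amino acid genes and on CHOP (encoded by Ddit3). Calnexin and calreticulin bind glycoproteins through their trimmed sugar chains, and the EDEM proteins trim mannose from the chains of glycoproteins that fail to fold, which marks them for export and destruction. Much of this pathway is controlled after transcription, by splicing, cleavage and phosphorylation, which gene-level TPM does not record.

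Some promoters of these genes hold sequence elements known from this response. No gene was chosen by its element, but the genes were listed for their part in the same response. The shares of matches below are therefore a description and no independent result. RefSeq promoters (mouse build GRCm38.p6) matched 30 of the 34 genes, all but Atf6, Derl1, Hyou1 and Manf, and the 250 bases before each start were searched on both strands. The ER stress element, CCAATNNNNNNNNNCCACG, the site through which ATF6 is known to act, was present in 9 of the 30, namely Calr, Canx, Creld2, Derl3, Dnajc3, Hsp90b1, Hspa5, Pdia6 and Syvn1. It was present in 0.13% of the 27025 symbols whose promoters were searched, or 35 symbols. The search did not cover every chromosome. The shorter ER stress element II, which reads ATTGG, any base, then CCACG, was present in Herpud1 and in 0.037% of the symbols searched. The element bound by C/EBP and ATF family dimers, TGATGNAA, was present in Asns, Chac1 and Herpud1 and in 3.91% of the symbols searched. The stretches below show the element in the main ER chaperone gene (Hspa5), in the 2 carriers of the ER stress element that passed the test in the CD8 libraries (Canx, Pdia6), and in the 3 carriers of the C/EBP-ATF element. Capitals mark the match, and in Chac1 and at the first match of Herpud1 the element reads on the opposite strand. Each sequence runs toward the gene's start and holds no transcribed base.
Hspa5, chr2:34772010-34772058, plus strand: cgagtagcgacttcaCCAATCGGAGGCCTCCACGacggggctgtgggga
Canx, chr11:50325785-50325833, minus strand: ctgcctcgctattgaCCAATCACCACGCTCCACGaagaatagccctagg
Pdia6, chr12:17266476-17266524, plus strand: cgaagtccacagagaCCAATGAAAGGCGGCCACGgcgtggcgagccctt
Asns, chr6:7693210-7693247, minus strand: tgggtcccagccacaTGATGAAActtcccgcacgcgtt
Chac1, chr2:119351034-119351071, plus strand: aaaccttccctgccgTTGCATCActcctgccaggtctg
Herpud1, chr8:94386302-94386402, plus strand: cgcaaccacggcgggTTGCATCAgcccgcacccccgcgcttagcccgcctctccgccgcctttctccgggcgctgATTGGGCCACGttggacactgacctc
A match describes these letters only and is neither a measured binding site nor a cause of any value.

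Read depth is unknown, since TPM keeps no library totals. Inside the 3 tables labelled CD8 control, the header over the values names mannose samples; groups here follow the sample labels. The beta V segments of the T cell receptor were used in nearly the same proportions by CD8 control 1 and 2 (r = 0.999 across segments) and by CD8 mannose 1 and 2 (r = 0.994), and whether such libraries share an animal is not stated. Counts of genes called in the CD8 libraries are therefore also given with each like pair averaged into 1 library. Cd8a lay at 570 to 591 TPM in CD8 controls and at 285 to 564 TPM in CD8 mannose libraries. Markers of other cells moved with mannose. The summed TPM of 8 T cell markers was 4776 to 5115 in controls and 2476 to 4657 with mannose, and 1 of the 8 was lower by the test. Macrophage markers summed to 3400 to 3897 TPM in controls and 1004 to 1344 with mannose, with 10 of 10 lower. Carcinoma markers summed to 255 to 567 TPM in controls and 1717 to 2624 with mannose. Of 5 carcinoma markers tested, 4 were higher and Cdh1 was lower. Muc16 was listed at 0 in all CD8 libraries and Epcam was below 1 TPM. In whole tumours, from separately scaled tables, Muc16 was also at 0 and Epcam reached at most 0.24 TPM. Cdh1 lay at 1.9 to 8.08 TPM in the tumours and at 28 to 30.1 TPM in CD8 controls. Macrophage markers summed to 1594 to 2844 TPM in tumour controls and 2163 to 4540 in tumours with mannose. Every CD8 control thus lay above every tumour control in these markers. In the CD8 libraries fibroblast markers summed to 60.4 to 171 TPM in controls and 312 to 490 with mannose, with 7 of 8 higher. With like libraries averaged, the macrophage and carcinoma counts were the same, while 0 fibroblast and 0 T cell markers passed. Dissociation-response genes summed to 1062 to 1659 TPM in CD8 controls and 1641 to 1879 with mannose. Of 8 such genes tested, 4 were higher and 0 lower, and with like libraries averaged 2 were higher and 0 lower. In such bulk libraries, fewer cells of a type and less RNA per cell cannot be told apart. The part of these other cells, and of the dissociation response, in the results below was not tested.

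**Figure D1:**
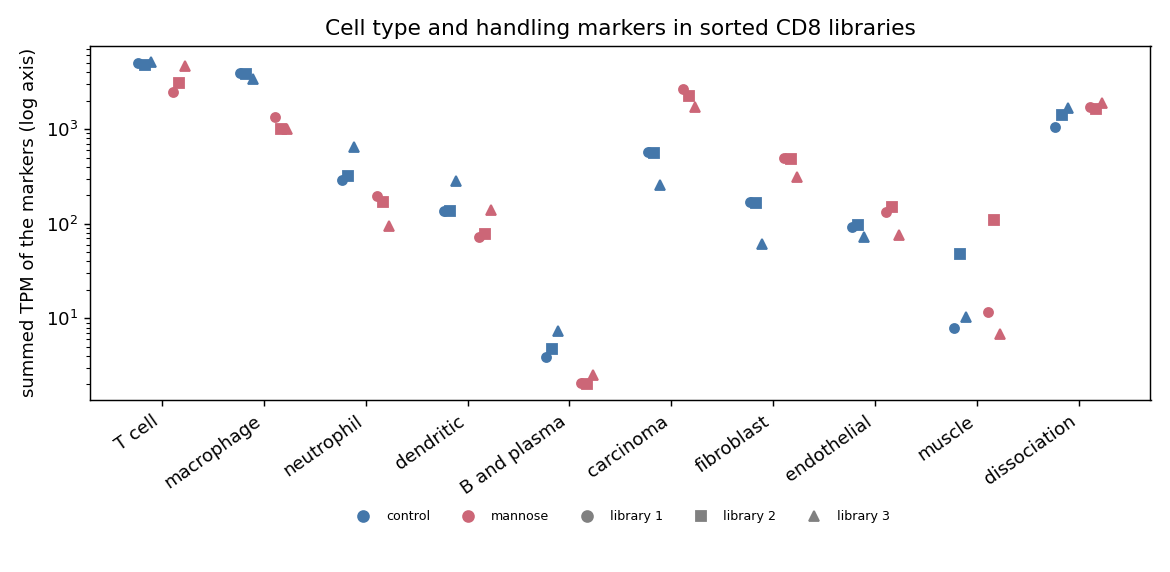
Summed TPM (log axis) of marker lists in each CD8 library, 3 control and 3 mannose, 1 point per library. Macrophage markers lie at 3400 to 3897 TPM in controls and 1004 to 1344 with mannose, and carcinoma markers at 255 to 567 and 1717 to 2624.

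In the CD8 libraries, mannose was compared with control by limma on log2(TPM + 1), a scale that understates changes of low genes, with Benjamini-Hochberg adjustment over 14280 genes and a threshold of 0.05. Of 33 genes of the set that could be tested, 10 passed: Canx, Pdia6, P4hb, Atf6, Trib3, Asns and Edem3 rose, and Dnajb11, Sdf2l1 and Eif2ak3 fell. Across all genes tested, 34.9% passed, 23.2% higher and 11.7% lower, so the share within the set was near the background and is no result about the set. The median log2 difference was 0.04 in the set and 0.09 over all genes. With like libraries averaged, 1 gene of the set, Atf6, passed, against 11.4% of all genes (7.55% higher, 3.88% lower). Leaving out 1 library at a time gave 5 calls in the set without control 1, 2 without control 2 and 4 without control 3. It gave 2 without mannose 1, 2 without mannose 2 and 15 without mannose 3. Calls over all genes moved as well. They were fewest without mannose 2, with 1909 higher and 894 lower of 14685 genes. They were most numerous without mannose 3, with 3610 higher and 2509 lower of 14789. The values of the CD8 mannose group did not overlap those of the control group for 19 of the 33, with 11 above and 8 below, while 51.4% of all genes did not overlap, 33.3% above and 18.1% below. The plot of differences by role shows every gene of the set with its error.

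**Figure D2:**
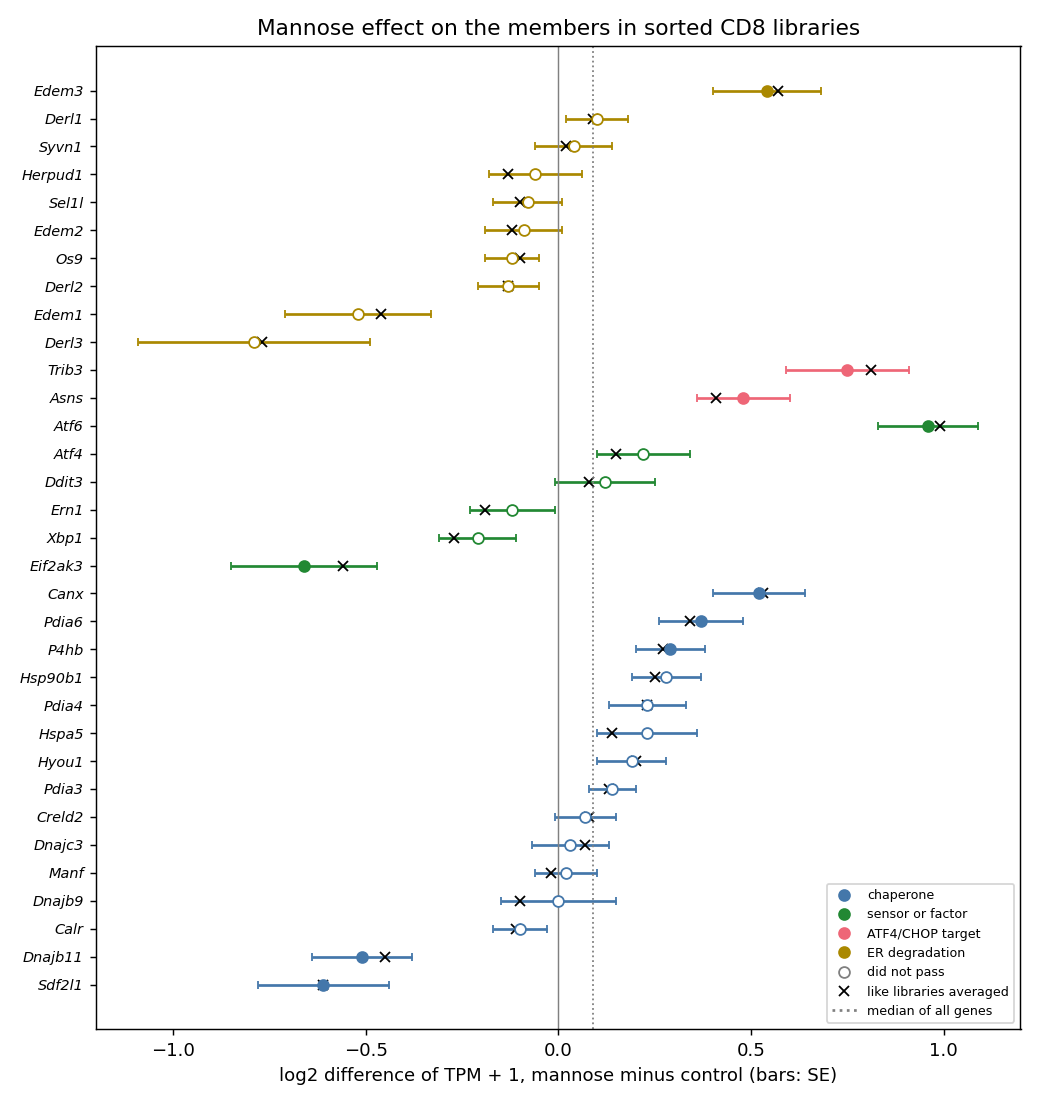
Log2 difference (mannose minus control, on log2(TPM + 1)) of each tested gene of the set in the CD8 libraries, grouped by role (colour), with bars for 1 standard error, filled points for genes that passed, crosses for the value with like libraries averaged and a dotted line at the median of all genes, 0.09. Atf6 lies highest at 0.96 and Derl3 lowest at -0.79, and the other genes lie between them.

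Direction depended on scaling for part of the set. Median-ratio scaling moved the median of all genes from 0.09 to -0.02 on the log2 scale and quantile normalization moved it to -0.03. Under median-ratio scaling 4 genes of the set were higher and 5 lower, against 18.1% and 17.8% of all genes. Scaling each CD8 library to its T cell markers, with Cd8a and Cd8b1 left out, moved the median of all genes to 0.69. Then 12 genes of the set were higher and 0 lower by limma, out of 32 tested. Under this scaling 39.0% of all genes were higher and 2.60% lower, so these counts too were near the background.

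Among the chaperones, Canx encodes calnexin, the membrane-bound lectin that holds glycoproteins in the ER while they fold. Its level was 262, 238 and 200 TPM in controls 1 to 3 and 350, 357 and 296 TPM in mannose 1 to 3. All 3 mannose libraries lay above all 3 controls, and mannose 3 was the nearest to them. Canx rose by 0.52 on the log2 scale (SE 0.12, limma adjusted p = 0.018), with adjusted p = 0.10 when like libraries were averaged. The call was lost in 5 of 16 alternatives, among them the fit of all 16 libraries. Its soluble relative calreticulin (Calr), with 629 TPM ± 23.6 (SD, n = 3) in controls and 586 TPM ± 9.81 (SD, n = 3) with mannose, did not pass (log2 difference -0.10, limma adjusted p = 0.273). The glycoprotein oxidoreductase Pdia3, which works with both lectins, had a log2 difference of 0.14 (limma adjusted p = 0.116).

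Pdia6 and P4hb encode protein disulfide isomerases, which make and rearrange disulfide bonds. Pdia6 stood at 192, 181 and 169 TPM in the controls and at 254, 247 and 201 TPM with mannose. P4hb stood at 589, 542 and 548 TPM in the controls and at 740, 696 and 626 TPM with mannose. For both enzymes every mannose library lay above every control, and mannose 3 was the lowest of its group. Pdia6 rose by 0.37 (SE 0.11, limma adjusted p = 0.0396) and P4hb by 0.29 (SE 0.09, limma adjusted p = 0.0362) on the log2 scale. With like libraries averaged the adjusted p was 0.20 for Pdia6 and 0.205 for P4hb. Both calls were also lost under median-ratio scaling, without a filter, and without any 1 of 5 libraries, all but mannose 3.

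Dnajb11 and Sdf2l1 encode ER proteins that form a complex and assist the chaperone BiP. Dnajb11 measured 89.7, 91.5 and 95.7 TPM in the controls and 54.4, 64.2 and 77.2 TPM with mannose. Sdf2l1 measured 45, 61.3 and 62.4 TPM in the controls and 38, 30.2 and 40.7 TPM with mannose. Neither gene's groups overlapped, and for each mannose 3 lay nearest the controls. Dnajb11 fell by 0.51 (SE 0.13, limma adjusted p = 0.0234) and Sdf2l1 by 0.61 (SE 0.17, limma adjusted p = 0.0284) on the log2 scale. Averaging like libraries gave adjusted p = 0.133 for Dnajb11 and 0.0697 for Sdf2l1. Of 16 alternatives, Dnajb11 lost its call in 7 and Sdf2l1 in 6, including the test without a filter for both. Scaling to T cell markers turned the direction of both, to log2 differences of 0.15 and 0.04.

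BiP itself, encoded by Hspa5, is the abundant ER chaperone whose rise is the usual mark of ER stress, and it did not pass. It had 457, 426 and 464 TPM in the controls and 595, 571 and 426 TPM with mannose, so mannose 1 and 2 lay above the controls and mannose 3 among them. Its log2 difference was 0.23 (SE 0.13, limma adjusted p = 0.23). Hsp90b1, which encodes the ER form of HSP90, had 378 TPM ± 16.8 (SD, n = 3) in controls and 461 TPM ± 48.1 (SD, n = 3) with mannose, with a log2 difference of 0.28 just outside the threshold (limma adjusted p = 0.0568). Both passed once mannose 3 was left out, and Hsp90b1 passed in 6 of the 16 alternatives. The other 6 genes of this role did not pass: the chaperone gene Hyou1, the disulfide isomerase gene Pdia4, the BiP cochaperone genes Dnajb9 and Dnajc3, and Manf and Creld2, which encode small ER stress-induced proteins. They had log2 differences between -0.00 for Dnajb9 and 0.23 for Pdia4. Of the 9 genes with the ER stress element in their promoter, 2 rose, 0 fell, and the 9 ranged from -0.79 to 0.52 on the log2 scale. That count was near the background of 23.2% higher and 11.7% lower, and with like libraries averaged none of the 9 passed by limma.

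The 3 sensors of the ER membrane did not move alike. Atf6, whose product is cut in the Golgi to release a transcription factor, measured 20.9, 19.5 and 15.6 TPM in the controls and 38.8, 38 and 34.4 TPM with mannose. The lowest mannose library stood well above the highest control. Atf6 rose by 0.96 on the log2 scale (SE 0.13, limma adjusted p = 0.00285), with a mean of 18.7 TPM ± 2.76 (SD, n = 3) in controls and 37 TPM ± 2.34 (SD, n = 3) with mannose. It passed in all 16 alternatives that were run, with log2 differences of at least 0.84 and with adjusted p = 0.0389 when like libraries were averaged. The level of Atf6 in whole tumours, from tables scaled separately, was 29.5 TPM ± 8.96 (SD, n = 5) in controls and 32 TPM ± 4.12 (SD, n = 5) with mannose.

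Eif2ak3 encodes PERK, the kinase that slows translation under ER stress. It had 36.8, 33 and 35.6 TPM in the controls and 17.3, 20.3 and 29.7 TPM with mannose. The groups did not overlap, although mannose 3 came close to the lowest control. Eif2ak3 fell by 0.66 on the log2 scale (SE 0.19, limma adjusted p = 0.0351), with adjusted p = 0.185 when like libraries were averaged. The call was lost in 9 of 16 alternatives, including the test without a filter, the fit of all 16 libraries and the omission of any 1 of 5 libraries, all but mannose 3. The difference was -0.02 after scaling to T cell markers. In whole tumours, whose tables were scaled separately, its level was 6.66 TPM ± 1.93 (SD, n = 5) in controls, below all 6 CD8 libraries.

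Ern1 encodes IRE1, the kinase and endoribonuclease that splices Xbp1 mRNA. It measured 27.5, 28 and 32.5 TPM in the controls and 27.2, 28.8 and 24.4 TPM with mannose, with overlapping groups and a log2 difference of -0.12 (limma adjusted p = 0.423). Xbp1 measured 119, 120 and 131 TPM in the controls and 117, 109 and 95.5 TPM with mannose. All 3 mannose values of Xbp1 lay below the controls, mannose 1 only just, and the log2 difference of -0.21 did not pass (limma adjusted p = 0.138). TPM per gene does not separate spliced from unspliced Xbp1.

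Atf4, the transcription factor downstream of PERK, had 142, 147 and 146 TPM in the controls and 188, 184 and 141 TPM with mannose. Mannose 1 and 2 exceeded every control and mannose 3 lay below them all. The log2 difference was 0.22 (SE 0.12, limma adjusted p = 0.189), and it passed when mannose 3 was left out. Ddit3, which encodes the apoptosis-linked factor CHOP, had 37.3, 34.4 and 34.1 TPM in the controls and 45.2, 37.5 and 33.3 TPM with mannose. Its groups overlapped, with a log2 difference of 0.12 (limma adjusted p = 0.496).

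In whole tumours the 3 ATF4 and CHOP targets of the set had log2 differences from -0.32 to -0.14, and none passed. In the CD8 libraries 2 of the 3 could be tested and 2 rose, where 23.2% of all genes rose. With like libraries averaged 0 of the 2 passed. Trib3, which encodes a pseudokinase that dampens ATF4 and CHOP signalling, measured 1.55, 1.91 and 1.57 TPM in the controls and 3.32, 3.23 and 4.01 TPM with mannose. Every mannose library was above every control, and here mannose 3 was the highest. Trib3 rose by 0.75 on the log2 scale (SE 0.16, limma adjusted p = 0.0113). Of 16 alternatives it lost its call in 1, the averaging of like libraries (adjusted p = 0.084).

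Asns encodes asparagine synthetase, and its promoter carries the C/EBP-ATF element shown above. Its level was 16.3, 15.7 and 19.1 TPM in the controls and 25.3, 25.2 and 21.8 TPM with mannose. The groups did not overlap, and control 3 and mannose 3 were the closest to each other. Asns rose by 0.48 on the log2 scale (SE 0.12, limma adjusted p = 0.0208), with adjusted p = 0.181 when like libraries were averaged. The call was lost in 7 of 16 alternatives, median-ratio scaling and quantile normalization among them. Chac1 encodes a glutathione-degrading enzyme, and its promoter also carries the element. It stayed below 1 TPM in every CD8 library (0.43, 0.5 and 0.41 in controls, 0.95, 0.81 and 0.57 with mannose) and was not tested. Of the 2 carriers tested, 1 rose (Asns) and 0 fell, where 23.2% of all genes rose. The other, Herpud1, had a log2 difference of -0.06 (limma adjusted p = 0.725). With like libraries averaged 0 of the 2 passed. Trib3 holds no match to the element.

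Of the 10 ER degradation genes, 1 passed, and with like libraries averaged 0 did, where 34.9% and 11.4% of all genes passed. Edem3, which encodes a mannosidase that trims glycans of misfolded proteins, measured 11.6, 11.3 and 8.84 TPM in the controls and 17, 15.8 and 14.4 TPM with mannose. The groups did not overlap. Edem3 rose by 0.54 on the log2 scale (SE 0.14, limma adjusted p = 0.0239), with adjusted p = 0.127 when like libraries were averaged. The call was lost in 7 of 16 alternatives, including quantile normalization (log2 difference 0.33, adjusted p = 0.0764), the fit of all 16 libraries and 4 omissions of a single library. Its relative Edem1 had the opposite sign, at 96.3 TPM ± 2.64 (SD, n = 3) in controls and 68.6 TPM ± 17.5 (SD, n = 3) with mannose, and did not pass (log2 difference -0.52, limma adjusted p = 0.0708). Edem2 had 37.2 TPM ± 1.74 (SD, n = 3) in controls and 35 TPM ± 3.2 (SD, n = 3) with mannose.

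Among the channel and ligase genes, Derl3, a derlin known from secretory cells, was the scarcest, at 1.87, 0.89 and 2.31 TPM in controls and 0.25, 0.31 and 1.12 TPM with mannose. Control 2 lay below mannose 3, so the groups overlapped, and the log2 difference of -0.79 did not pass (limma adjusted p = 0.085). The ubiquitin ligase Syvn1 (HRD1), its partner Sel1l, the derlins Derl1 and Derl2, the lectin Os9 and the membrane protein Herpud1 had log2 differences between -0.13 for Derl2 and 0.10 for Derl1, and none passed. Os9 was the most abundant ER degradation gene, at 138 TPM ± 4.8 (SD, n = 3) in controls and 126 TPM ± 6.56 (SD, n = 3) with mannose.

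**Figure D3:**
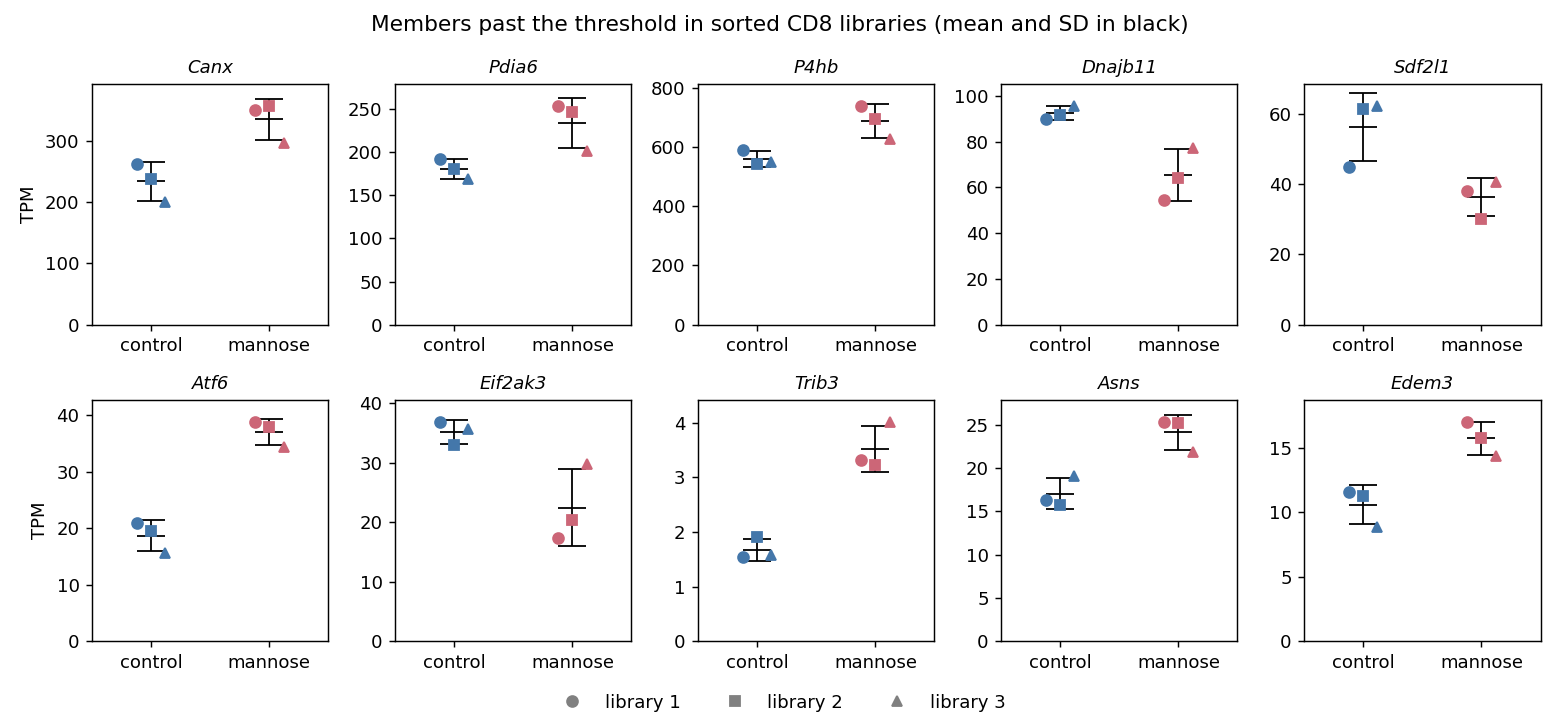
TPM of the 10 genes of the set that passed the test in the CD8 libraries, with 1 point per library (shape gives its number) and bars for the mean and SD of 3. Mannose and control points do not overlap in any panel, and mannose 3 is the point nearest the control mean for 9 of the 10 genes.

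Mannose 3 was the mannose library nearest the control mean for 20 of the 33 tested genes and for 9 of the 10 called ones. Its nearness was not limited to the set. Over all genes its log2 values correlated with controls 1 to 3 at r = 0.949, 0.947 and 0.924. The correlations were 0.916, 0.917 and 0.884 for mannose 1, and 0.923, 0.924 and 0.893 for mannose 2. Mannose 3 also had the highest T cell marker sum of its group (4657 TPM, against 2476 and 3050 TPM in mannose 1 and 2). The part of these traits in the results was not tested. As a share of all TPM, the 34 genes together held 0.438%, 0.421% and 0.425% in controls 1 to 3 and 0.488%, 0.486% and 0.432% in mannose 1 to 3. Chaperones made up most of that share, led in controls by Calr at 629 TPM and P4hb at 560 TPM, with Hspa5 at 449 TPM, Hsp90b1 at 378 TPM and Pdia3 at 318 TPM.

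Genes of the same pathway outside the set were described from 4 lists, whose counts stand against 23.2% higher and 11.7% lower over all genes, or 7.55% and 3.88% with like libraries averaged. Of 37 other ER folding genes tested in the CD8 libraries, 19 rose and 3 fell, with a median log2 difference of 0.30, and with like libraries averaged 6 were higher and 0 lower. The largest rises were those of prolyl isomerases of the ER, several of which fold collagen. Fkbp10 went from 13 TPM ± 5.88 to 61 TPM ± 13.1 (SD, n = 3 each), a log2 difference of 2.23 (limma adjusted p = 0.00464). Fkbp9, Fkbp11 and Fkbp14 rose by 2.12, 2.08 and 1.92 on the log2 scale. Their levels in whole tumours, from separately scaled tables, were 113, 64, 109 and 11.4 TPM in controls for Fkbp10, Fkbp9, Fkbp11 and Fkbp14. Ero1b (an oxidase for disulfide isomerases), Txndc11 and Erp29 fell by 0.56, 0.46 and 0.44. Scaling to T cell markers turned these 3 to 0.06, 0.18 and 0.22, and median-ratio scaling left 12 of the list higher and 5 lower. Fibroblast and carcinoma marker sums were higher in the same libraries, as given above, and their part was not tested.

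Of 32 other integrated stress response genes, 8 rose and 5 fell, shares near those of all genes, with a median log2 difference of -0.02. The cystine transporter gene Slc7a11 fell from 19.9 TPM ± 1.82 to 3.3 TPM ± 0.611 (SD, n = 3 each), a log2 difference of -2.29 (limma adjusted p = 0.00029), and its partner Slc3a2 fell by 0.46. Cebpb, a transcription factor, and Mthfd2, a mitochondrial folate enzyme, fell by 1.17 and 0.53. In the other direction Vldlr, a lipoprotein receptor gene, went from 4.21 TPM ± 2 to 28.9 TPM ± 4.77 (SD, n = 3 each), a log2 difference of 2.60 (limma adjusted p = 0.00236), and Atf5, Gdf15 and Nupr1 rose by 1.08, 1.06 and 1.03. With like libraries averaged, 4 of the list were higher and 1, Slc7a11, was lower (limma adjusted p = 0.0112). Scaling to T cell markers turned Mthfd2 to 0.12 and Slc3a2 to 0.20. Macrophage marker sums were lower in the same mannose libraries, and their part was not tested.

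Of 26 other ER degradation genes, 9 rose and 1 fell, with a median log2 difference of 0.15. The ubiquitin ligase gene Marchf6 went from 23.7 TPM ± 1.01 to 37.2 TPM ± 1.3 (SD, n = 3 each; log2 difference 0.63, limma adjusted p = 0.0029) and was also called with like libraries averaged (adjusted p = 0.0475). Fam8a1, Erlin2 and Rnf5 rose by 0.63, 0.62 and 0.52, and Ube2j2, an E2 enzyme, fell by 0.32, although scaling to T cell markers turned it to 0.33. Median-ratio scaling gave 4 of this list higher and 5 lower. Of 14 other signalling genes tested out of 16, 3 rose and 0 fell: Tnfrsf10b (a death receptor, 1.83), Mbtps1 (the site-1 protease that cuts ATF6, 0.49) and Creb3 (an ER-anchored factor, 0.41), each on the log2 scale. With like libraries averaged, 1 gene of each of these lists was higher and 0 were lower.

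In whole tumours no gene of the set passed. Of 33 tested, 0 passed the limma test, as did 0% of 13282 genes over the whole table, and the smallest adjusted p in the set was 0.754. At an unadjusted p under 0.05 there were 2 of 33, against 6.23% of all genes. None of the 33 had groups that did not overlap, against 1.63% of all genes. The median log2 difference was 0.02 in the set and 0.12 over all genes, and median-ratio scaling and quantile normalization moved the latter to -0.01 and -0.00. Control 1 and mannose 3 correlated least with the other tumour libraries, and control 1 had the lowest value for 21 of the 34 genes. The set held 0.341% of TPM in control 1, the lowest of the 10 tumours, and 0.504% in control 5, the highest. Leaving out both libraries that stood apart still gave 0 calls.

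The 5 genes with the smallest unadjusted p in tumours were Dnajc3, Asns, Hsp90b1, Eif2ak3 and Dnajb11. Dnajc3, which encodes an ER cochaperone that inhibits eIF2 kinases, had 10.9, 19.3, 15.7, 16.8 and 14.8 TPM in controls 1 to 5 and 19.1, 21.6, 21.2, 20.6 and 19.2 TPM in mannose 1 to 5. Control 2 lay within the mannose range and the other controls below it, with a log2 difference of 0.39 (limma unadjusted p = 0.0177, adjusted p = 0.754). Asns had 30.1, 23.6, 33.1, 28.2 and 31.7 TPM in controls and 21.9, 25.6, 23.1, 24.5 and 21.3 TPM with mannose. Again only control 2 lay within the mannose range, and the log2 difference was -0.32 (limma unadjusted p = 0.0182, adjusted p = 0.754).

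Hsp90b1 had 197, 204, 213, 192 and 203 TPM in tumour controls and 238, 222, 205, 224 and 207 TPM with mannose. Eif2ak3 had 3.32, 7.86, 7.56, 7.91 and 6.65 TPM in tumour controls and 7.22, 9.05, 8.21, 8.36 and 7.73 TPM with mannose. Dnajb11 had 30.9, 39.6, 45.5, 38.4 and 44.8 TPM in tumour controls and 45.2, 45.9, 53.6, 41.3 and 40.6 TPM with mannose. The groups of all 3 overlapped, and control 1 held the lowest Eif2ak3 and Dnajb11. Their limma unadjusted p-values were 0.153, 0.163 and 0.165. The sensors and factors not shown by library spanned 14 to 37.2 TPM (Atf6), 4.27 to 26.1 TPM (Ern1), 103 to 166 TPM (Xbp1) and 131 to 175 TPM (Atf4) over the 10 tumours. P4hb was the most abundant of the set in tumours, with 986 TPM ± 211 (SD, n = 5) in controls and 955 TPM ± 87.1 (SD, n = 5) with mannose.

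Ddit3, whose symbol stands for 2 entries in the tables, had the largest standard error of the set in tumours. Summed, it had 36, 42.7, 29.5, 193 and 315 TPM in controls 1 to 5 and 48.6, 121, 27.6, 137 and 139 TPM in mannose 1 to 5. The first entry alone had 36, 42.7, 29.5, 28.1 and 37.1 TPM in controls and 27.2, 26.1, 26.6, 41.3 and 24.2 TPM with mannose. The second entry was listed at 0 in tumour controls 1 to 3 and in all 6 CD8 libraries, and reached 278 TPM in tumour control 5. The spread thus sat in the second entry, and the groups overlapped for both the sum and the first entry. The summed value had a log2 difference of 0.03 (SE 0.70) and the first entry one of -0.26 (SE 0.16, limma adjusted p = 0.754). The GENCODE M21 annotation holds 2 genes named Ddit3, one with spliced transcripts of 600 to 969 bases and one with a single transcript of 105 bases, but the tables do not say which entry is which.

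**Figure D4:**
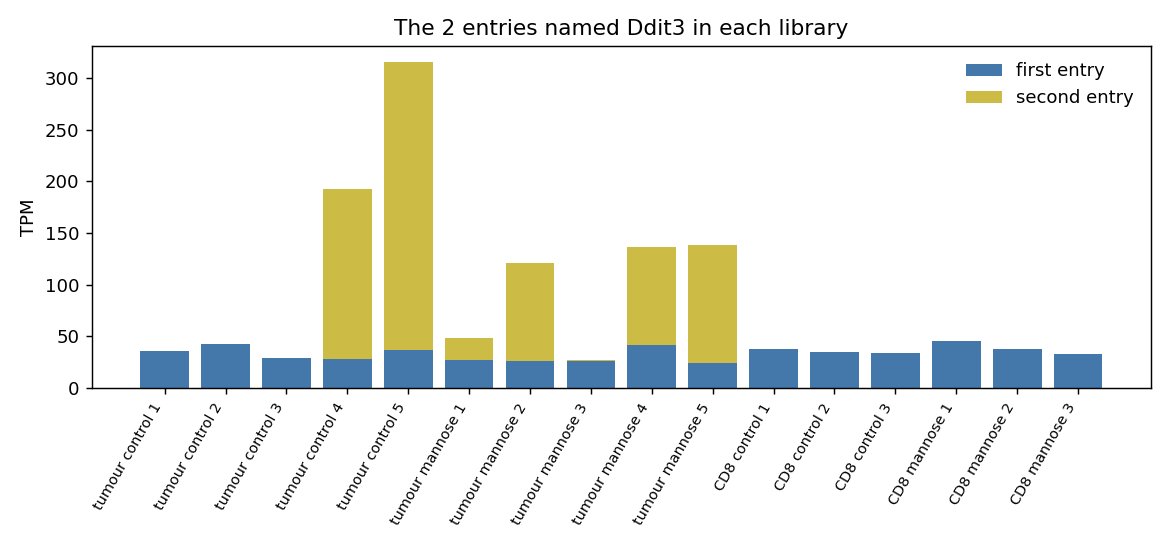
TPM of the 2 table entries named Ddit3 in each of the 16 libraries, stacked, with library names below the bars. The first entry stays between 24.2 and 45.2 TPM, and the second ranges from 0 to 278 TPM in tumours and is 0 in the CD8 libraries.

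The mannose effect in the CD8 libraries was compared with that in whole tumours by testing the difference of the 2 effects over all 16 libraries. Of 34 genes of the set, 5 passed the limma test. The CD8 effect was above the tumour effect for Trib3 and Asns and below it for Dnajb11, Eif2ak3 and Derl3. Derl3 was too low in tumours to be tested there. Of all 15498 genes 18.7% passed, 11.0% above and 7.64% below, so the count was near the background and is no result about the set. With like libraries averaged 2 genes of the set passed, against 10.6% of all genes. The difference of the log2 effects was 0.90 for Trib3 (SE 0.23, limma adjusted p = 0.0123) and 0.80 for Asns (SE 0.17, limma adjusted p = 0.00418). Both passed in all 25 alternatives run, with adjusted p of 0.0447 for Trib3 and 0.0407 for Asns when like CD8 libraries were averaged. Asns had opposite signs in the 2 comparisons, 0.48 in CD8 libraries and -0.32 in tumours, and the tumour value did not pass.

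The effect difference was -0.69 for Dnajb11 (limma adjusted p = 0.0217), -0.95 for Eif2ak3 (limma adjusted p = 0.0405) and -1.10 for Derl3 (limma adjusted p = 0.0491). These 3 were less steady than Trib3 and Asns: Dnajb11 lost its call in 4 of the 25 alternatives, Eif2ak3 in 13 and Derl3 in 16, and all 3 lost it with like libraries averaged. Derl3 reached at most 2.31 TPM in any library. In tumours it lay at 0 to 1.23 TPM, below the filter, and was not tested there. It passed the filter of this fit through CD8 libraries, where it was higher, so its call is no evidence of a differing effect. Atf6 was the largest riser of the set in the CD8 libraries, but its CD8 rise was not shown to differ from the tumour effect. Its difference of effects was 0.78 and did not pass (limma adjusted p = 0.117). It passed in 5 of the 25 alternatives: quantile normalization, median-ratio scaling, array weights, the fit without mitochondrial, receptor segment, ribosomal protein and predicted genes, and the fit without tumour control 1.

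**Figure D5:**
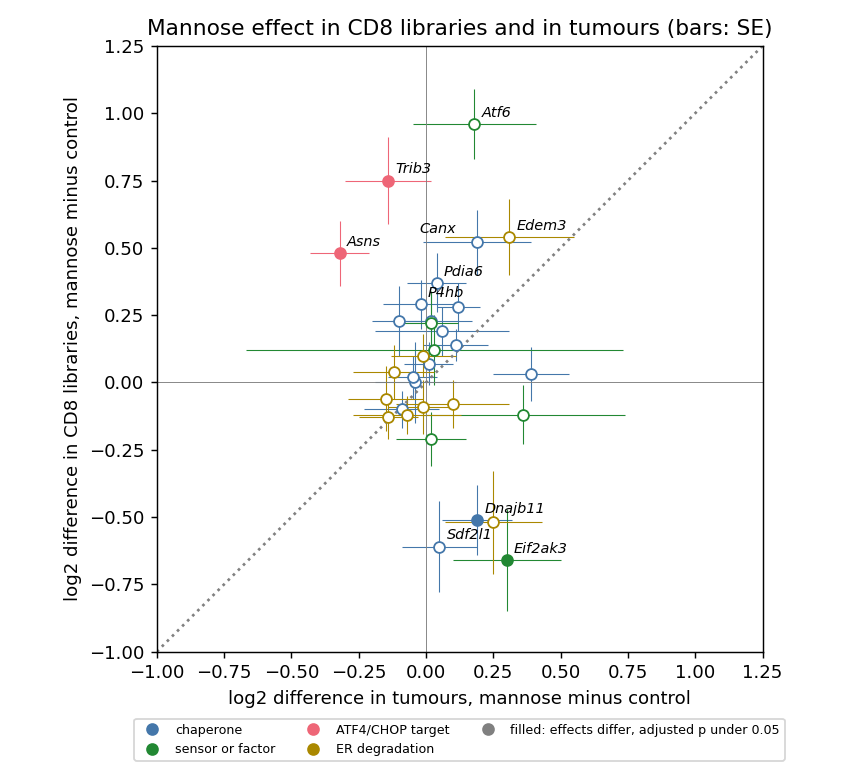
Log2 difference between mannose and control in CD8 libraries (vertical axis) against that in whole tumours (horizontal axis) for the genes tested in both, with bars for 1 standard error and the dotted line for equal effects. Filled points are genes whose 2 effects differed by the test, and Trib3 and Asns lie above the line while Dnajb11 and Eif2ak3 lie below it.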

How the data were processed

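Messenger RNA was sequenced in 10 tumour and 6 CD8 libraries. TPM values per gene symbol were deposited by the authors, in a separate table for each library. Build GRCm39 and the tools fastp, HISAT and RSEM are named in the submitters' processing notes; versions and settings are not given in the sources used here. TPM was inferred from sums of 993815 to 997809 per library. Depth is unknown, so no counting error can be given.

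Entries sharing a symbol were summed, and 7 listed symbols were matched by a synonym. Genes reaching 1 TPM in 3 (CD8, interaction) or 5 (tumour) libraries entered limma 3.58.1 (R 4.3.3, trended variance) as log2(TPM + 1). Each tissue was fitted alone, and the difference of effects over all 16. The genes were matched by symbol and no value entered the rule, but they and the lists were chosen with earlier results of these data known, so the choice was not independent of the data. Every library is given for genes past the threshold in CD8, for the main sensors and factors, and for the 5 smallest p in tumours. From each of 4 pathway lists up to 4 genes per direction with the largest difference and a mean of at least 5 TPM are named.

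Marker lists not described above gave these sums in CD8 controls and CD8 mannose libraries: neutrophil 287 to 646 and 94.6 to 194 TPM, dendritic 136 to 282 and 72.8 to 139, B or plasma cell 3.93 to 7.29 and 2.04 to 2.5, endothelial 72.9 to 97.3 and 76.4 to 152, and muscle 7.91 to 48.4 and 6.77 to 109. Alternatives changed the pseudocount, filter, scaling, weights, replicate block, gene set and libraries. An alternative with the first Ddit3 entry alone was chosen after seeing the data. Promoter sequences are RefSeq's (GRCm38.p6), a different build from the tables', so no other coordinates are given. Protein sequences were not used here.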

Additional observations from a re-analysis of the deposited data

Results flagged for a closer look

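For 5 genes the effect of mannose in the CD8 libraries differed from that in whole tumours by limma's test of the difference. On the log2 scale Trib3 (0.90) and Asns (0.80) lay above, and Dnajb11 (-0.69), Eif2ak3 (-0.95) and Derl3 (-1.10) below. Derl3 was too low in tumours to be tested there, so its call is no evidence of a differing effect. Of all 15498 genes 18.7% passed this test, 11.0% above and 7.64% below, so the count was near the background. With like libraries averaged, Trib3 and Asns still passed and the other genes did not. In 1 of 68 groups examined, a library lay far from the others: Eif2ak3 in tumour control 1, the lowest of its group, with a gap to the next library of 0.725 of the group's range, above the critical value of 0.71 for 5 samples. Chance alone gives about 1 such group in 20.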

How the results depend on the processing

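Counts of genes of the set past the threshold (limma, Benjamini-Hochberg adjustment) depended on the processing in the CD8 libraries and in the difference of effects, while in tumours they were 0 under every alternative. In the CD8 libraries 10 passed, 7 higher and 3 lower. Without a filter on low values 5 passed, 0 of them lower. Array weights gave 19 (13 higher, 6 lower), the fit of all 16 libraries 6 (4 higher), and averaged like libraries 1 (1 higher, 0 lower). Median-ratio scaling gave 4 higher and 5 lower, and scaling to T cell markers 12 higher and 0 lower. The last also turned Dnajb11 (0.15) and Sdf2l1 (0.04) from lower to higher. Leaving out 1 library gave 2 to 15 calls, with 2 to 11 higher and 0 to 4 lower. Calls over all genes shifted too. The main fit called 3306 higher and 1674 lower of 14280 genes, and array weights 5114 and 3517. Without a filter 2782 were higher and 1250 lower of 27302. The fit of all 16 libraries gave 2748 and 1258 of 15498, and averaged like libraries 1091 and 561 of 14459. For the difference of effects 5 genes of the set passed, 2 above and 3 below. A pseudocount of 0.1 gave 3 (1 below), no filter 3 (1 below), quantile normalization 12 (7 above, 5 below), median-ratio scaling 8 (5 below), array weights 14 (8 above, 6 below) and averaged like libraries 2 (0 below). Leaving out 1 library gave 2 to 7 calls, with 2 to 4 above and 0 to 4 below. Over all 15498 genes the main fit called 1712 above and 1184 below, quantile normalization 2017 and 1706, and array weights 3478 and 2845. Median-ratio scaling called 1919 and 1672 of 15447 genes, and averaged like libraries 1047 and 562 of 15196. The cause of these shifts was not tested.

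Same-numbered libraries did not deviate together in every pair: the correlations were 0.057, 0.095 and 0.163 in CD8 and -0.055, -0.232, 0.280, 0.161 and -0.511 in tumours, and CD8 control 2 correlated best with mannose 1. The numbers were therefore not taken as pairing. The fit with a replicate block gave 11 calls in CD8 (7 higher, 4 lower), 0 in tumours and 4 for the difference of effects (2 above, 2 below). Depth is unknown, so low genes such as Derl3, Chac1 and Trib3 carry an unstated counting error.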
